A study of Homo sapiens with 6 samples.

Results

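The amino acid transporter genes described here were the protein-coding genes whose symbols carry the family names SLC1A, SLC3A, SLC6A, SLC7A, SLC36A, SLC38A or SLC43A followed by a number. They were selected by symbol in the deposited count table, and no measured value entered the selection. There were 42 such genes among the 21776 genes of the table. Some of them carry cargo other than standard amino acids: SLC6A8 carries creatine, SLC6A6 taurine, SLC43A3 purine nucleobases, SLC6A11, SLC6A12 and SLC6A13 GABA or betaine, and SLC6A2, SLC6A3 and SLC6A4 monoamines.

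The study measured the transcriptome of SCC25, a human oral squamous cell carcinoma (OSCC) line of wild-type genotype, under hypoxic and normoxic conditions. Both groups were grown in DMEM/F12 with 10% fetal bovine serum and antibiotics, and both carried a 12 h label. Hypoxic cells were kept in a mixture of 1% O2, 5% CO2 and nitrogen (3 libraries), and normoxic cells in humidified air with 5% CO2 (3 libraries). Total RNA was extracted and sequenced as mRNA-seq, with 29637189 to 37278703 counted reads per library. The sample labels name SCC25, while a legend of the study names SCC9 for its transcriptome analysis and the count columns read only "hnscc". Nothing in the labels states that the replicates came from separate cultures, so the p-values below measure only the spread between these 6 libraries, which may be technical.

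Amino acid transporters of the plasma membrane work as exchangers, as sodium- or proton-coupled importers, or as facilitators. SLC7 light chains of the heteromeric type reach the membrane only when joined to a heavy chain of the SLC3 family, so that 1 heavy chain serves several light chains. In tumor cells these proteins supply glutamine, leucine and other essential amino acids for growth, and cystine for glutathione. Several of their genes are known targets of ATF4, the transcription factor of the amino acid response.

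Checks of the libraries came before the comparison. All 15 genes of a hypoxia response list were higher under hypoxia, with a median log2-fold change of 2.71. CA9, a carbonic anhydrase and a standard hypoxia marker, was at 262, 277 and 293 CPM (counts per 1000000 reads of the scaled library) in hypoxia libraries 1 to 3 and at 32.2, 27.3 and 67.7 CPM in normoxia libraries 1 to 3. NDRG1, another hypoxia-induced gene, was at 163, 140 and 409 CPM in the normoxia libraries. Normoxia library 3 thus stood above the other normoxia libraries for both genes, and it was the highest normoxia library for 13 of the 15 listed genes. Without it, all 23 transporter calls given below remained and 3 were added, for 10 higher and 16 lower.

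The squamous markers KRT5 and TP63 were expressed at 111 and 68.3 CPM on average under hypoxia and at 126 and 62.7 CPM under normoxia. KRT5 was called lower and TP63 was not called. KRT6A fell from 16.5 to 0.951 CPM (log2-fold change -4.12), and KRT14 had at most 1 count in any library. The 10 squamous markers summed to 2053, 2204 and 2124 CPM under hypoxia against 917, 927 and 1067 CPM under normoxia, led by ITGB4; of the 9 tested, 5 were higher and 3 lower. The 7 fibroblast markers summed to 22.1, 18.7 and 17.3 CPM under hypoxia against 4.03, 3.18 and 5.65 CPM under normoxia. Nearly all of this sum was COL1A1, since the other fibroblast markers together reached no more than 2.13 CPM and COL3A1 had no more than 3 counts. Leukocyte markers, led by CD68, summed to 33.8, 37.8 and 39.9 CPM under hypoxia against 33.6, 33.0 and 35.9 CPM under normoxia, with PTPRC and CD3E at 3 counts or fewer. Without CD68 they summed to 6.52, 5.89 and 6.07 CPM against 0.914, 0.839 and 1.69 CPM, and CD14 was called higher (log2-fold change 2.45, adjusted p = 7.27e-08). Endothelial markers summed to 1.57, 1.29 and 1.57 CPM under hypoxia against 0.296, 0.315 and 0.744 CPM under normoxia; CDH5, the most abundant, was called higher (1.14, adjusted p = 0.0250), having passed the filter only through hypoxia libraries, and TEK had 3 counts or fewer. The part of these markers in the transporter results was not tested.

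Under hypoxia more transporter genes were lower than higher. Of the 42 genes, 28 had enough counts for a test and 14 did not. Among the 28, 15 were lower under hypoxia, 8 were higher and 5 did not pass an adjusted p of 0.05 in edgeR's quasi-likelihood test with Benjamini-Hochberg adjustment over all genes tested. The replicates were tight and most of the transcriptome passed the same test: 77.8% of all 14255 tested genes were called, 38.5% lower and 39.2% higher. The called share of the transporters, 82.1%, was near that background, while the share called lower was 53.6%. The median log2-fold change (hypoxia over normoxia) of the 28 genes was -0.35, beside 0.023 for all genes tested. In bulk RNA, fewer cells of a kind and less RNA per cell cannot be told apart.

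Large changes went both ways. At least a 2-fold decrease was called for 5 transporters (17.9% of those tested, beside 10.5% of all genes), namely SLC7A11, SLC7A6, SLC7A2, SLC1A5 and SLC7A1. At least a 2-fold increase was called for 5 others (17.9%, beside 19.9% of all genes), namely SLC6A16, SLC6A8, SLC38A5, SLC43A3 and SLC43A1. SLC6A16 and SLC38A5 passed the filter on low counts only through their hypoxia libraries, which favors a higher value under hypoxia. Among the 26 transporters without these 2 genes, 6 were higher and 15 lower, 3 and 5 of them by at least 2-fold. The shares of all genes still hold 1272 genes that passed only through hypoxia libraries and 203 only through normoxia libraries. They are thus not on the same basis as this count. For 23 of the 28 genes the hypoxia and normoxia libraries did not overlap, beside 80.5% of all genes tested. The remaining SLC genes of the table gave another comparison: of 174 tested, 65 were higher and 76 lower, with a median of 0.053. Of these 174, 13 passed the filter only through hypoxia libraries, which favors higher values under hypoxia, and none only through normoxia libraries.

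**Figure D1:**
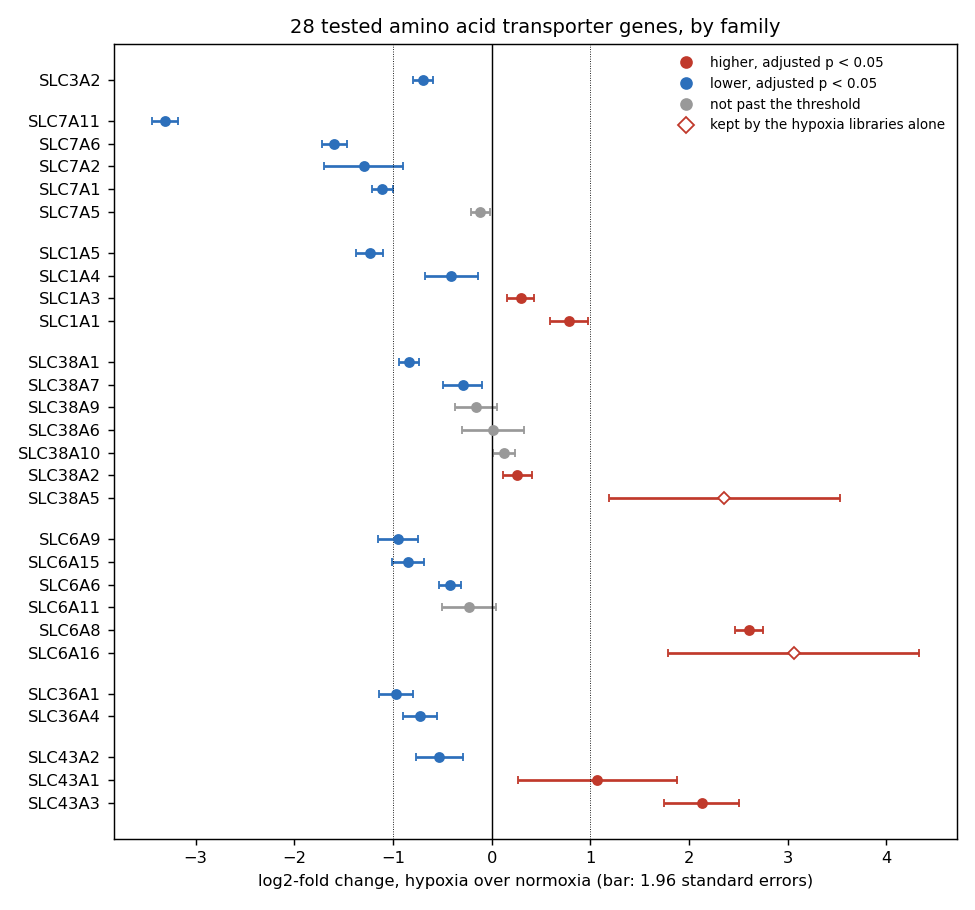
Log2-fold change (hypoxia over normoxia, horizontal axis) of the 28 tested transporter genes, grouped by family, with bars for the 95% intervals and dotted lines at a 2-fold change. Every SLC7A point lies left of 0, SLC7A11 farthest at -3.31, while SLC6A8 lies at 2.61 and the open diamonds, SLC38A5 and SLC6A16, passed the count filter through the hypoxia libraries alone.

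Abundance was compared between genes as the deposited FPKM (fragments per kilobase of gene and per 1000000 counted reads), which correct for gene length. Under normoxia SLC7A5 led with 122 ± 3.24 FPKM (SD, n = 3), followed by SLC3A2 with 94.6 ± 2.76, SLC1A5 with 74.8 ± 6.87, SLC7A1 with 54.4 ± 1.85, SLC38A2 with 50.5 ± 6.41 and SLC38A1 with 38.4 ± 0.264 FPKM. SLC7A1 and SLC38A2 overlapped between libraries and had no clear order. Under hypoxia the first place went to SLC6A8 with 153 ± 16.3 FPKM, up from rank 8 at 24.3 ± 1.85 FPKM, followed by SLC7A5 with 116 ± 4.70, SLC38A2 with 62.3 ± 4.27, SLC3A2 with 60.4 ± 1.89 and SLC1A5 with 32.8 ± 1.97 FPKM. SLC38A2 and SLC3A2 overlapped here. Under normoxia the libraries of SLC6A8 overlapped those of SLC7A6 and SLC6A6, so rank 8 was no clear order. SLC7A11 went from rank 12 to rank 19, where its hypoxia libraries overlapped those of SLC1A4.

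Per length, the 42 genes summed to 565 ± 11.8 FPKM under hypoxia and 581 ± 8.65 under normoxia, with overlap between the groups. Without the length correction they took 0.276 ± 0.00498% of all counts under hypoxia and 0.309 ± 0.00421% under normoxia, with no overlap. SLC6A8 alone made up 27.0 ± 2.39% of the FPKM sum under hypoxia and 4.19 ± 0.382% under normoxia. Without SLC6A8 the sum was 412 ± 6.85 FPKM under hypoxia and 556 ± 10.4 under normoxia, and the groups did not overlap. The 11 genes above 10 FPKM on average over all libraries comprised 6 called lower, 3 called higher (SLC6A8, SLC38A2 and SLC1A3) and 2 not called. The 17 less abundant genes comprised 9 lower, 5 higher and 3 not called, so that the called share of both classes was near the 77.8% of all genes.

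Promoter sequences were available for 23 of the 28 tested genes (39 promoters, 250 bases before to 50 after the start, RefSeq, GRCh38.p14). They are shown because ATF4 and its partners read a composite C/EBP-ATF element, whose core was searched as TGATGNAA on both strands. It occurred in 6 of the 39 transporter promoters (15.4%) and in 1270 of all 35116 promoters (3.62%). The 6 genes were SLC1A3, which was higher under hypoxia, and SLC1A4, SLC1A5, SLC38A1, SLC3A2 and SLC7A1, which were lower. Of all 23 genes with a promoter, 11 were lower and 7 higher. The windows are given 5′ to 3′ on the gene's strand, with the matched letters in capitals, on the plus strand for SLC1A3 (chr5:36596352-36596391), SLC1A4 (chr2:64989376-64989415) and SLC3A2 (chr11:62881720-62881748) and on the minus strand for SLC1A5 (chr19:46784888-46784927), SLC38A1 (chr12:46266497-46266536) and SLC7A1 (chr13:29595658-29595697).
SLC1A3: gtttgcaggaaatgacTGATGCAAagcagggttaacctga
SLC1A4: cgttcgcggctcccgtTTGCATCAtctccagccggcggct
SLC1A5: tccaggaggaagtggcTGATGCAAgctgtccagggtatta
SLC38A1: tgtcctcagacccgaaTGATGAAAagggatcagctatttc
SLC3A2: taatgtgcaggactccTTACATCAgctcc
SLC7A1: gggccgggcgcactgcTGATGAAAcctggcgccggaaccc
In SLC1A4 and SLC3A2 the match lies on the opposite strand, so the capitals show its reverse complement. SLC1A3 and SLC1A5 hold the same 8 letters in capitals and differ in the bases around them. Hypoxia response element cores were searched in the same way on both strands: ACGTG was found in 12 of the 39 promoters (30.8%, beside 21.4% of all promoters) and GCGTG in 24 (61.5%, beside 36.5%). These letters were in promoters of genes that fell as well as of genes that rose, 7 of 11 lower and 4 of 7 higher genes for ACGTG, and 10 of 11 and 5 of 7 for GCGTG. The SLC6A8 window held none of the 3 motifs. A match in these windows is a description of the letters and not a binding site.

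The heteromeric transporters held the largest decrease among the 28 tested genes. SLC7A11, the xCT light chain that imports cystine in exchange for glutamate, was at 11.3, 11.8 and 11.2 CPM in hypoxia libraries 1 to 3 and at 117, 117 and 106 CPM in normoxia libraries 1 to 3. The groups were far apart and the hypoxia libraries lay within 1 CPM of each other. The mean was 11.4 ± 0.340 CPM against 113 ± 6.12 CPM (SD, n = 3), a 9.91-fold decrease with a log2-fold change of -3.31 (SE 0.068, adjusted p = 1.35e-15). The antisense gene SLC7A11-AS1 shares 865 exonic bases with SLC7A11 but had almost no reads, 0.0022 FPKM on average.

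SLC7A6, the y+LAT2 light chain that exchanges arginine for neutral amino acids, was at 63.7, 55.8 and 62.1 CPM under hypoxia and at 183, 196 and 170 CPM under normoxia. Its groups did not overlap, and the log2-fold change was -1.60 (SE 0.066, adjusted p = 7.65e-13). SLC7A6 shares 3371 exonic bases with SLC7A6OS on the opposite strand, at 5.20 FPKM on average, and the strand setting of the counting is not given in the sources used here, so part of its reads is uncertain.

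SLC7A5, the LAT1 light chain that brings in leucine and other large neutral amino acids, was not called. It was at 590, 627 and 628 CPM under hypoxia and at 658, 695 and 645 CPM under normoxia. All 3 hypoxia libraries lay below the normoxia libraries, but by little: the log2-fold change was -0.11 (SE 0.051, 95% interval -0.22 to -0.014 before adjustment) and the adjusted p of 0.0510 missed the threshold. The call turned with the setting: the DESeq2 Wald test gave an adjusted p of 0.0483, the fit with no filter 0.00736, and the fits without hypoxia replicate 2 and without normoxia replicate 3 gave 0.0395 and 0.0105. It did not pass with 10 counts required in every library (-0.037, adjusted p = 0.509), with the replicate block (0.103), with DESeq2 size factors (0.0707) or with any of the other libraries left out (0.0539 to 0.163). Stretches of 537 and 536 bases of the SLC7A5 transcript match the pseudogenes SLC7A5P1 and SLC7A5P2 at 96.6% and 96.3% identity, which could divert some reads.

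SLC3A2, the heavy chain 4F2hc that these light chains share, was at 149, 144 and 141 CPM under hypoxia and at 236, 242 and 226 CPM under normoxia. It fell without overlap, by 0.70 on the log2 scale (SE 0.052, adjusted p = 1.39e-09). Light chains were summed over SLC7A5, SLC7A6, SLC7A11 and the scarce SLC7A7, SLC7A8 and SLC7A9. This sum was 127 ± 4.24 FPKM under hypoxia and 160 ± 5.31 under normoxia. The ratio of light to heavy chain was 1.69 ± 0.0229 under normoxia and 2.10 ± 0.117 under hypoxia, with no overlap between libraries. The make-up of the light chains differed as well: SLC7A5 made up 76.3 ± 0.595% under normoxia and 91.8 ± 0.663% under hypoxia, SLC7A6 16.6 ± 0.456% and 7.16 ± 0.635%, and SLC7A11 7.15 ± 0.256% and 0.939 ± 0.0351%. The light chains SLC7A7, SLC7A8 and SLC7A9 and the heavy chain SLC3A1 had too few counts for a test, the most being 23 for SLC7A8 in a hypoxia library. SLC7A8 had 23, 9 and 13 counts under hypoxia and 4, 4 and 2 under normoxia.

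**Figure D2:**
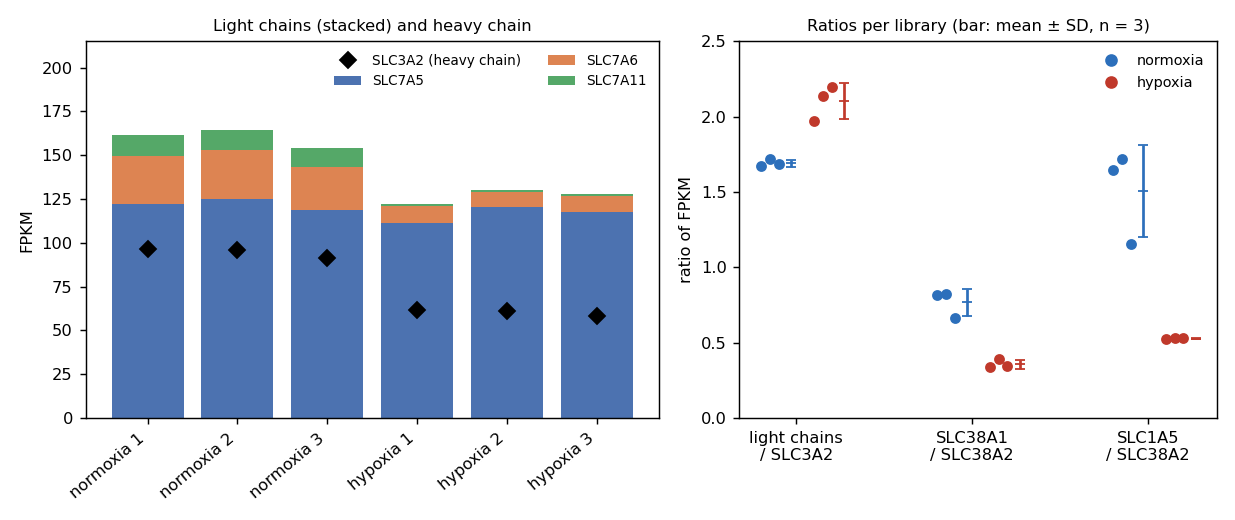
Left, stacked FPKM of the light chains SLC7A5, SLC7A6 and SLC7A11 in each library, with black diamonds for the heavy chain SLC3A2. Right, ratios of FPKM per library with mean ± SD, where the light chain sum also holds the scarce SLC7A7, SLC7A8 and SLC7A9. Light chains over SLC3A2 sit at 1.67 to 1.72 in normoxia and 1.97 to 2.20 in hypoxia. SLC38A1 and SLC1A5 over SLC38A2 are lower in every hypoxia library.

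Of the cationic transporters, which carry arginine, lysine and ornithine, both measured members fell. SLC7A1 (CAT1), the widely expressed member, was at 199, 183 and 194 CPM under hypoxia and at 418, 428 and 397 CPM under normoxia, a log2-fold change of -1.11 (SE 0.054, adjusted p = 5.63e-12). SLC7A2 (CAT2), found in immune cells and liver, was scarce, at 1.83, 1.45 and 1.82 CPM under hypoxia and 3.95, 4.37 and 4.23 CPM under normoxia (log2-fold change -1.30, SE 0.20, adjusted p = 1.64e-05). Neither gene had overlapping groups. Within SLC7A as a whole, 4 of 5 tested genes were called lower and none higher, beside 38.5% and 39.2% of all genes tested.

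The glutamine carriers were called in both directions. In the deposited annotation 8 tested genes carry L-glutamine transmembrane transporter activity. Of these, 4 were lower, 2 higher and 2 not called, beside 38.5% lower and 39.2% higher of all genes tested. The 2 higher were SLC38A2, whose groups overlapped, and SLC38A5, which passed the filter only through its hypoxia libraries. SLC1A5 (ASCT2), a sodium-dependent exchanger of glutamine and other small neutral amino acids, was at 109, 95.1 and 102 CPM under hypoxia and at 246, 261 and 214 CPM under normoxia. The groups did not overlap, and the log2-fold change was -1.24 (SE 0.070, adjusted p = 4.05e-11). SLC1A5 shares 780 exonic bases with AC008622.2 on the opposite strand. AC008622.2 was not among the genes analysed here, so part of the SLC1A5 reads is uncertain. SLC1A4 (ASCT1), which exchanges alanine, serine and cysteine, was less abundant, at 5.60, 5.32 and 5.33 CPM against 7.44, 7.62 and 6.52 CPM. It fell by 0.41 on the log2 scale (SE 0.14, adjusted p = 0.0111). Both genes belong to the group whose promoters hold TGATGNAA.

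SLC38A1 (SNAT1) and SLC38A2 (SNAT2), sodium-coupled importers of glutamine and alanine, moved in opposite directions. SLC38A1 was at 245, 246 and 232 CPM under hypoxia and at 427, 436 and 430 CPM under normoxia, a log2-fold change of -0.84 (SE 0.050, adjusted p = 6.76e-11). SLC38A2, which is induced by amino acid shortage, was at 317, 272 and 292 CPM under hypoxia and at 227, 231 and 281 CPM under normoxia. Its groups overlapped, since normoxia library 3 lay above hypoxia library 2. The log2-fold change was 0.26 (SE 0.075, adjusted p = 0.00501), or 0.35 without normoxia replicate 3. This value was 0.19 without hypoxia replicate 1 (adjusted p = 0.043) and 0.19 without normoxia replicate 1 (adjusted p = 0.047). Per length, the ratio of SLC38A1 to SLC38A2 was 0.357 ± 0.0300 under hypoxia and 0.768 ± 0.0897 under normoxia. The ratio of SLC1A5 to SLC38A2 was 0.527 ± 0.00444 under hypoxia and 1.51 ± 0.305 under normoxia, and neither ratio overlapped between groups.

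The other SLC38 genes were small or scarce. SLC38A5 (SNAT5), a glutamine and glycine carrier, had 10, 15 and 25 counts under hypoxia and 3 counts in each normoxia library. Its fitted log2-fold change of 2.36 (SE 0.60, adjusted p = 0.00168) rests on these few reads and on the way it passed the filter. SLC38A7, a lysosomal glutamine exporter, had a log2-fold change of -0.29 (adjusted p = 0.0133), but the adjusted p was 0.0611 when 10 counts were required in every library and 0.0636 without normoxia replicate 1. SLC38A10 had a log2-fold change of 0.12 (adjusted p = 0.0626), with an adjusted p of 0.00456 when 10 counts were required in every library and of 0.0410 without normoxia replicate 3. It did not pass with any other library left out (adjusted p = 0.105 to 0.350), and was 0.065 without normoxia replicate 2. SLC38A6 was at 0.0097 (adjusted p = 0.958), with a 95% interval of -0.30 to 0.32, and shares 245 exonic bases with TRMT5 on the opposite strand. SLC38A11 had no more than 1 count in any library.

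Lysosomal carriers, which report or release the amino acids of the lysosome, were lower or not called. SLC38A9, an arginine sensor that acts on mTORC1, was at 13.6, 15.5 and 12.7 CPM under hypoxia and at 14.4, 17.6 and 14.8 CPM under normoxia, with overlapping groups (log2-fold change -0.16, SE 0.11, adjusted p = 0.193; -0.25 to -0.073 with a library left out, never called). SLC36A1 (PAT1), a proton-coupled carrier of small neutral amino acids, was at 11.6, 11.2 and 10.8 CPM against 22.1, 22.1 and 21.5 CPM. SLC36A1 fell without overlap, by 0.97 on the log2 scale (SE 0.089, adjusted p = 2.18e-08). SLC36A4, of the same family, also fell, by 0.73 (adjusted p = 6.09e-07). In the deposited annotation 6 of the 42 genes carry the term lysosomal membrane (SLC36A1, SLC36A4, SLC38A7, SLC38A9, SLC3A2 and SLC7A5); 4 of them were called lower and none higher, beside 38.5% and 39.2% of all genes tested.

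Of the glutamate and aspartate transporters, 4 were in the table, 2 were tested and both were higher, beside 39.2% of all genes tested. SLC1A1 (EAAT3), which also carries cysteine, was at 25.6, 27.3 and 24.4 CPM under hypoxia and at 15.2, 12.9 and 16.8 CPM under normoxia. The groups did not overlap, and the log2-fold change was 0.78 (SE 0.098, adjusted p = 1.06e-06). SLC1A3 (EAAT1), the more abundant gene of this pair per length (16.3 against 4.26 FPKM over all libraries), was at 97.5, 78.9 and 82.5 CPM against 69.4, 72.2 and 69.4 CPM. It rose by 0.29 on the log2 scale (SE 0.070, adjusted p = 0.00101), or by 0.19 (adjusted p = 0.0110) without hypoxia replicate 1. SLC1A3 is the only gene of the TGATGNAA group above that was higher under hypoxia. SLC1A2 had no more than 1 count per library, and SLC1A6 had 5, 18 and 5 counts under hypoxia against 0, 0 and 1, with most of its reads in hypoxia library 2.

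In the SLC6 family, SLC6A8, the creatine transporter, took rank 1 of the 42 genes in FPKM, up from an unclear rank 8. It was at 535, 646 and 635 CPM under hypoxia and at 95.9, 94.9 and 108 CPM under normoxia. All hypoxia libraries lay far above the normoxia libraries, with means of 605 ± 61.4 and 99.5 ± 7.0 CPM (SD, n = 3). This was a 6.09-fold increase with a log2-fold change of 2.61 (SE 0.074, adjusted p = 1.41e-14), and 2.55 to 2.68 with any library left out. The pseudogene SLC6A10P matches 2062 bases of the SLC6A8 transcript at 96.4% identity and was not among the genes analysed here, so reads of the pair could not be separated.

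SLC6A6, the taurine transporter, was at 137, 131 and 124 CPM under hypoxia and at 171, 185 and 169 CPM under normoxia. It fell without overlap, by 0.42 on the log2 scale (SE 0.056, adjusted p = 2.80e-06). SLC6A9 (GLYT1), a glycine importer, and SLC6A15, a carrier of branched-chain amino acids and proline, fell by 0.95 and 0.85. SLC6A9 shares 404 exonic bases with CCDC24 on the opposite strand. SLC6A11, a GABA transporter, was at -0.23 (adjusted p = 0.145) and passed without hypoxia replicate 3 (-0.36, adjusted p = 0.0464) but not with any other library left out, at -0.13 without hypoxia replicate 1. SLC6A16, an orphan member, had 18, 45 and 12 counts under hypoxia and 1, 4 and 3 under normoxia. Its fitted log2-fold change of 3.06 (SE 0.65, adjusted p = 3.69e-04) rests on few reads and was 2.44 without hypoxia replicate 2. It too passed the filter only through hypoxia libraries. The other 7 SLC6 genes, among them the monoamine transporters SLC6A2, SLC6A3 and SLC6A4, had at most 15 counts in any library.

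The SLC43 facilitators also divided. SLC43A3, which carries purine nucleobases, was at 10.4, 11.8 and 11.1 CPM under hypoxia and at 1.91, 2.06 and 3.72 CPM under normoxia. Normoxia library 3 was again the highest of its group, and the groups did not overlap (log2-fold change 2.13, SE 0.19, adjusted p = 1.99e-08). The value was 2.47 without normoxia replicate 3, 1.93 without normoxia replicate 1 and 2.00 without normoxia replicate 2. SLC43A3 shares 1349 exonic bases with AP000781.2 on the same strand. AP000781.2 was not among the genes analysed here, so part of the SLC43A3 reads is uncertain. SLC43A1 (LAT3), a facilitator of large neutral amino acids, was scarce, at 1.08, 1.72 and 0.770 CPM against 0.484, 0.384 and 0.845 CPM, with overlapping groups. Its log2-fold change of 1.07 (SE 0.41, adjusted p = 0.0252) lost its call without hypoxia replicate 2 (0.69, adjusted p = 0.188), without normoxia replicate 1 (0.94, adjusted p = 0.0846) and without normoxia replicate 2 (0.86, adjusted p = 0.0887). SLC43A2 (LAT4), of similar function, was at 7.86, 8.93 and 7.52 CPM against 13.1, 11.6 and 10.5 CPM, and fell by 0.53 on the log2 scale (SE 0.12, adjusted p = 7.23e-04). The SLC43A2 transcript holds a stretch that matches transcripts of 42 other genes over at least 200 bases at 95% identity or more, so some of its reads are uncertain.

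Genes that act with the transporters were described from 4 lists. Of 28 tested genes of the amino acid response, 10 were higher, 14 lower and 4 not called, with a median log2-fold change of -0.16. Over all genes tested, the shares were 39.2% higher and 38.5% lower. ATF4 itself was at 366, 340 and 364 CPM under hypoxia and 332, 340 and 341 CPM under normoxia, with overlap and a log2-fold change of 0.078 (SE 0.050, adjusted p = 0.165; 0.16 and adjusted p = 0.00818 when 10 counts were required in every library). ASNS, the asparagine synthetase and a classical ATF4 target, was at -0.13 (adjusted p = 0.583), and DDIT3, which encodes CHOP, at 0.27 (adjusted p = 0.138; 0.42 and 0.0157 without normoxia replicate 3, 0.095 and 0.579 without normoxia replicate 2). TRIB3, a pseudokinase induced by ATF4, fell by 0.44 (adjusted p = 2.25e-06). Among called genes of at least 1 on the mean log2 CPM scale, the largest changes were those of DDIT4, an inhibitor of mTORC1 signalling (log2-fold change 3.74), ATF5 (-2.02) and ATF3 (1.54). The scarcer NUPR1, a stress-induced nuclear protein, and ALDH1L2, a mitochondrial folate enzyme, had fitted values of 3.86 and 2.18 and passed the count filter only through their hypoxia libraries. Genes of this list thus lay on both sides of 0, as the plot of the transporters beside the 4 lists shows.

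Carriers of amino acids outside the 7 families mostly fell: of 21 tested, 15 were lower (71.4%, beside 38.5% of all genes) and 6 higher, with a median of -0.68. SLC25A15, the mitochondrial ornithine carrier, was at 5.24, 3.85 and 4.78 CPM under hypoxia and 22.2, 20.5 and 19.6 CPM under normoxia (log2-fold change -2.18, SE 0.12, adjusted p = 3.54e-11). SFXN2 and SFXN4, of the sideroflexin family of the mitochondrial inner membrane, were at -1.87 and -1.14. The family went both ways: SFXN1 and SFXN5 were also called lower (-0.96 and -0.96), but SFXN3 was called higher (0.87, adjusted p = 2.01e-10). SFXN3 averaged 99.7 CPM under hypoxia and 54.5 CPM under normoxia. SFXN1, SFXN3 and SFXN5 were picked out with the results already known. The aspartate-glutamate carriers SLC25A12 and SLC25A13 of the malate-aspartate shuttle were at -0.68 and -1.05, and the mitochondrial glutamate carrier SLC25A22 at -0.75, each called lower. Among the 6 higher carriers was SLC25A29, which carries basic amino acids into mitochondria, at 1.07 (adjusted p = 3.49e-09), named after its value was seen. The lysosomal carriers of this list went both ways. SLC15A3, SLC15A4 and SLC17A5 were called higher (1.08, 0.31 and 0.46), and CTNS, MFSD12 and SLC66A1 lower (-0.48, -0.75 and -0.63). They too were named after their values were seen.

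Enzymes that use the transported amino acids were mostly lower as well: of 33 tested, 22 were lower (66.7%, beside 38.5% of all genes), 9 higher and 2 not called, with a median of -0.46. GPT, the alanine aminotransferase, was scarce, had a fitted value of 2.52 and passed the count filter only through its hypoxia libraries. Beside SLC7A11, the subunits of glutamate-cysteine ligase, which makes the precursor of glutathione from cysteine, were both lower. GCLM, the modifier subunit, was at 12.3, 9.79 and 13.4 CPM under hypoxia and 64.5, 66.0 and 52.9 CPM under normoxia (log2-fold change -2.37, SE 0.11, adjusted p = 2.21e-12). GCLC, the catalytic subunit, was at 18.7, 18.7 and 19.5 CPM against 58.9, 60.01 and 53.6 CPM (log2-fold change -1.60, SE 0.069, adjusted p = 1.51e-12). ODC1, which turns ornithine into putrescine, and SRM, the spermidine synthase, fell by 2.44 and 2.37. ARG2, the mitochondrial arginase, was higher by 0.26 (adjusted p = 0.0301), and SMS, the spermine synthase, was at -0.11 and not called; both were named after their values were seen.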

How the data were processed

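RNA-seq libraries of SCC25 cells (3 hypoxia, 3 normoxia) were compared. The authors deposited whole-number counts per gene and FPKM; their aligner, counter, annotation and strand setting are not given in the sources used here. The submitters' processing notes name the mouse builds GRCm38 and mm10 although the symbols are human, so no coordinates were taken from the files. The deposited FPKM followed from the counts and library totals for 21775 of 21776 genes. Groups came from the sample labels.

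Counts were filtered with filterByExpr (minimum count 10), scaled by TMM and tested for hypoxia against normoxia with the quasi-likelihood test of edgeR 4.0.16 under R 4.3.3, with Benjamini-Hochberg adjustment over 14255 genes and a threshold of 0.05; the code was tested on simulated data. CPM are counts per 1000000 reads of the TMM-scaled library size. Depth was 29637189 to 37278703 counts per library; intervals of counts cover counting error only. The 4 context lists, markers and members were chosen with earlier results of these data known. In full were named a reference set of transporters, further members called with at least a 2-fold change and no overlap, and the 5 most abundant; from each list, the 3 largest called changes without overlap whose log2 CPM averaged 1 or more, and fixed reference genes, of which 1 gene is not reported here. Alternatives were DESeq2 1.42.0 (Wald test, size factors), other filters, a replicate block and leaving out each library. Shared transcript stretches were found with BLAST 2.17.0 in GENCODE 29 (at least 200 bases, 95% identity), and exon overlaps from the same annotation. Promoters came from a RefSeq table; SLC43A3, SLC6A15, SLC6A6, SLC7A11 and SLC7A2 were not matched. Of the 39 promoters, 31 were matched in sequence to GENCODE transcripts, all on the strand given.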

Additional observations from a re-analysis of the deposited data

How the results depend on the processing

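Over 306 refits of the 28 transporter genes, 290 kept direction and call; 22 genes did so under every alternative tried. SLC38A6, near 0, changed sign with no filter (-0.031) and when libraries were left out (-0.13 to 0.11). The number of transporters at least 2-fold higher was 3 in place of 5 when 10 counts were required in every library, since SLC38A5 and SLC6A16 were then not tested. Called genes over all genes ranged from 9967 with that filter to 11920 with none, and from 10669 to 11390 with a library left out. Same-numbered replicates did not deviate together over all genes (correlations 0.018, -0.069 and 0.0012). With 3 libraries per group these values cannot decide whether the numbers pair the samples. With the replicate block 8 transporters were higher and 15 lower, the same 23 genes, and 10875 genes were called in all. The filter of 10 counts in every library shifted the median log2-fold change of shared genes by 0.077. Depth limits the 14 untested transporters, none of which had more than 23 counts, and SLC43A1, SLC38A5 and SLC6A16. All libraries differed by more than sampling noise and were counted separately.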

Other observations

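Genes that the deposited annotation places in the KEGG ferroptosis pathway, to which SLC7A11 and SLC3A2 belong, were looked at after their values were seen, and no test of the set was made. Of 40 such genes, 35 were tested, 16 were lower and 12 higher, with a median log2-fold change of -0.10. Over all genes tested, 38.5% were lower and 39.2% higher. Among the 12, ALOX15 passed the filter on low counts only through its hypoxia libraries, which favors a higher value under hypoxia. Beside SLC7A11, GCLM and GCLC, SLC39A8, a zinc and iron importer, had 823, 895 and 827 counts under hypoxia and 2311, 1784 and 1499 under normoxia (lower, edgeR adjusted p = 3.98e-10). Genes that were higher included HMOX1, the heme oxygenase (1.74), SAT1, which acetylates polyamines (1.43), GPX4, the glutathione peroxidase that reduces lipid peroxides (1.04), and FTH1, the ferritin heavy chain (0.91). FTL, the ferritin light chain, fell by 0.35 while FTH1 rose.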
